A study of Mus musculus with 2 samples.

Results

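The genes described here are the cytosolic ribosomal protein genes of mouse GM-CSF bone marrow (BM) cultures. They were taken by symbol, as every gene whose name starts with Rps or Rpl followed by a digit, without pseudogenes marked "-ps" and without the Rps6k kinases. The rule found 82 of the 26124 genes in the matrices, of which 33 carried an Rps symbol and 49 an Rpl symbol, spread over 19 chromosomes. It used no measured value. Not every match builds the ribosome: Rps19bp1 encodes a protein that binds Rps19, and Rpl7l1 a protein related to Rpl7. The rule leaves out 6 genes whose products are also part of the cytosolic ribosome, among them Rpsa, Rplp0, Rplp1, Rplp2 and Fau, and these were counted separately.

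The ribosome consists of a small subunit, where the code of the mRNA is read, and a large subunit, where amino acids are joined. Each subunit holds ribosomal RNA and many proteins in equal numbers of copies, so the genes of these proteins are expressed together, and in many cells they are among the most abundant mRNAs. Most of their mRNAs begin with a run of pyrimidines (C or T in the DNA) directly at the 5′ end, through which growth signals that pass through mTOR control their translation. In myeloid differentiation, progenitors make many ribosomes, whereas maturing neutrophils shut this production down.

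Lineage-depleted BM cells of C57BL/6 mice aged 8 to 10 weeks were cultured with GM-CSF at 20 ng/ml, a growth factor that yields dendritic cells (DCs), macrophages and neutrophils. On day 3, heme bound to albumin (300 µM) was added to the heme group, and albumin alone to the control group. Each group was 1 single-cell library, in which 5 cultures were pooled after each had received an antibody with a DNA hashtag that names its day (0, 3, 4, 5 or 7). Transcripts were counted at their 3′ ends by unique molecular identifiers (UMIs), so that 1 UMI stands for 1 captured molecule whatever its length. The sources differ on the hours of exposure behind the later hashtags, and culture days are used throughout. Days 0 and 3 come before the addition in both libraries, and a difference between the libraries on these days cannot be one of heme exposure by the labels.

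Barcodes with 1 hashtag were used, 12050 of them control and 14164 heme. The 10 cultures held 1716 to 3464 such cells and between 19140367 and 75505515 gene UMIs. The median cell held 8850 to 15424 UMIs in the control cultures and 9771 to 19696 in the heme cultures. The libraries shared 112 cell barcodes, 49 of them among the cells used. They already stood apart before the addition: on day 0, Hmox1, which encodes the enzyme that breaks down heme, had 1.83 counts per 1000000 UMIs (CPM) in control against 124 CPM in heme, and the macrophage receptor Marco had 0.0522 and 7.80 CPM. S100a8, a neutrophil gene, was at 825 and 1303 CPM on that day. The part of free RNA, of hashtag errors and of library preparation in these values was not tested. With 1 library per group there was no replicate, so no test was run, and the intervals below (95%) cover counting error only.

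The sequence around the start of transcription was read for the members on which the results below turn, to show how far the pyrimidine run is present among genes that differ in their values. RefSeq starts on GRCm38.p6 were found for 63 of the 82 members, 53 of them with 1 start. Each line gives 10 bases before and 20 bases after the listed start on the gene's strand, 5′ to 3′, and capitals mark the longest run of 5 or more C or T that begins with C. A marked run need not lie at the start itself, and that of Rpl3l lies downstream of it. For Rpl3l, 2 starts are listed, and the one not shown has no such run.
Rps6 (chr4:86857348-86857377, minus strand): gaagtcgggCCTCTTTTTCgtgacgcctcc
Rps12 (chr10:23787190-23787219, minus strand): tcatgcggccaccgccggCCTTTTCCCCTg
Rpl13a (chr7:45128726-45128755, minus strand): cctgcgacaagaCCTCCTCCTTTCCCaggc
Rps15 (chr10:80292421-80292450, plus strand): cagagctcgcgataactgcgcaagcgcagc
Rps18 (chr17:33955646-33955675, minus strand): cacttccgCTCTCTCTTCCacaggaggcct
Rpl15 (chr14:18270967-18270996, minus strand): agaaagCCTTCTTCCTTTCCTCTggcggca
Rpl11 (chr4:136053374-136053403, minus strand): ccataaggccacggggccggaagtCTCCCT
Rps27 (chr3:90213629-90213658, minus strand): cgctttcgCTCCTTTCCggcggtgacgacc
Rps27rt (chr9:114982720-114982749, minus strand): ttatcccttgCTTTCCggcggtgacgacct
Rpl3l (chr17:24727816-24727845, plus strand): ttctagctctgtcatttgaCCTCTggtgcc

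A run of this kind stood in the 30-base window of 42 of the 63 members (66.7%), against 39.5% of the 26962 other genes in the table. The word CTTTC, searched on the gene's strand from 20 bases before to 30 bases after the start, was present in 33.3% of the members and 7.60% of the other genes (42.9% and 14.3% on both strands). CTTCC, which can overlap such a run, was present in 31.7% and 12.0% on the gene's strand, and in 47.6% and 24.6% on both strands. Over the whole 300 bases of the table, the ETS factor word CCGGAAG was present on either strand in 38.1% of the members and 9.86% of the other genes. The YY1 word AAGATGGC was present in 9.52% and 3.17%. Members high and low in the comparisons below both carry a run, as Rpl13a and Rps12 on one side and Rps18 and Rpl15 on the other show. Members without a run also stood on both sides, Rps15, Rpl37a and Rpl41 on the high side and Rpl9 on the low side. Medians with and without a run are given at the end. Rps27 and Rps27rt share 19 bases of these windows without a break, ctttccggcggtgacgacc. Rps27rt is a near-copy of Rps27, and reads that match both genes may be lost in the counting. Their 3′ ends, where transcripts were counted, were not compared.

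The members were abundant in every culture. In all 10 cultures, 54 of the 82 members had 1000 CPM or more, and 6 stayed under 100 CPM. No gene dominated the family: the median member supplied 1.21% of the family's UMIs, and the 5 members with most UMIs supplied 14.5%. Among these were Rpl41, with 3.72% of the family's UMIs, Rps12 (2.71%), Rpl13 (2.42%) and Rps27a (2.38%), whose product is made as a fusion with ubiquitin. Rpl41, which encodes the smallest protein of the large subunit, had 7819, 6534, 5460, 6091 and 6599 CPM in the control cultures on days 0, 3, 4, 5 and 7. In the heme cultures it had 8729, 7322, 5008, 5812 and 5567 CPM. Rpl41 was thus higher in heme before the addition and lower on each day after it in CPM. Scaled by TMM factors, which centre the libraries on the bulk of their genes, it was lower in heme throughout.

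The summed share of the family was high at the start of the culture and lower on every later day. In the control library, the members took 30.2%, 19.3%, 15.4%, 17.0% and 20.3% of all gene UMIs for days 0, 3, 4, 5 and 7. In the heme library, the shares were 25.6%, 17.1%, 11.6%, 13.1% and 14.3%. The lowest share was on day 4 in both libraries, and the heme library was below the control library on all 5 days, including both days before the addition. With intervals of at most 0.1 percentage points in width, counting error was negligible beside these differences, and it says nothing of variation between cultures. The 6 ribosome genes outside the rule took a further 3.03% (day 0) and 2.26% (day 7) in control, and 2.71% and 1.72% in heme.

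Cells of one culture differed widely. On day 4, when S100a8 was at its highest in both libraries (61420 CPM in control and 55019 CPM in heme), the quartiles of the share per cell were 4.93% and 19.0% in the control culture, with a median of 10.4%. The quartiles were 4.63% and 13.1% in the heme culture, with a median of 7.50%. On day 0 the cells lay closer together, with quartiles of 27.9% and 33.1% in control and 22.2% and 27.8% in heme. Cells with 30% or more of their UMIs in the family made up 59.8% of the day 0 control culture and 7.62% of its heme counterpart, at median depths of 9446 and 9771 UMIs. A cell filter set at this value therefore removes unequal parts of the day 0 cultures. On day 7, such cells made up 4.37% in control and 0.138% in heme.

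**Figure D1:**
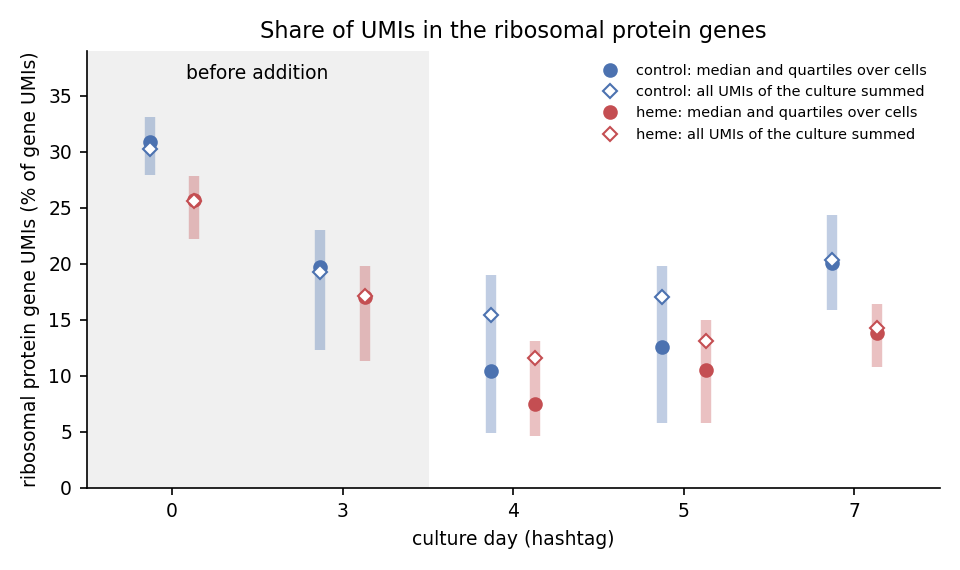
Share of gene UMIs in the 82 ribosomal protein genes (y axis, %) by culture day (x axis) in the control (blue) and heme (red) libraries. Filled points are medians over cells, bars run from the lower to the upper quartile, and open diamonds are the summed UMIs of a culture. The grey area marks days 0 and 3, before heme or albumin was added. The control culture was above the heme culture on each day, with summed shares of 30.2% and 25.6% (day 0) and of 20.3% and 14.3% (day 7).

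The libraries differed before and after the addition, and which day differed most depended on the measure. The heme minus control difference in the share was −4.61 percentage points on day 0 and −2.21 on day 3, and then −3.86, −3.85 and −6.02 points for days 4, 5 and 7. As a ratio of heme to control, the share was 0.848 (interval 0.847 to 0.849), 0.886, 0.749, 0.773 and 0.704 (interval 0.703 to 0.704) in the order of the days. Day 3 was the last culture before the addition, and divided by its ratio, the values became 0.957 for day 0 and 0.846, 0.873 and 0.795 for the 3 days after the addition. In points, days 4 and 5 lay between both days before the addition, whereas as a ratio each day after it was below them. With cells limited to 500 to 5000 genes and under 15% mitochondrial UMIs, day 3 was at −3.96 points, close to −4.17 on day 5. As a difference of medians over cells, day 5 (−2.10 points) was smaller than day 3 (−2.73). Neutrophil genes moved with the library as well: the neutrophil panel took 9.70% of the UMIs in control and 7.22% in heme on day 3, but 0.416% and 1.83% on day 7, when S100a8 was at 1742 and 7580 CPM. Their part in the sum was not tested. The ferritin genes Fth1 and Ftl1, which store iron and are known targets of heme, took 1.32% of the UMIs in control and 1.13% in heme on day 3. They took 2.39% in control and 7.84% in heme on day 7. Without them, the difference was −5.30 points on that day. The share of mitochondrially encoded genes was 4.07% to 5.06% in the control cultures and 4.72% to 5.56% in the heme cultures.

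Within each library the time courses differed at the end. The share on day 7 was 0.968 points above that of day 3 in the control library (interval 0.951 to 0.986). In the heme library it was −2.83 points from that of day 3 (interval −2.85 to −2.82). On day 4 the values were −3.91 points in control and −5.57 points in heme. These differences between the libraries were not tested. They are those of summed cultures, and in control most marker ranges, given below, were lower on day 7 than on day 3.

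Member by member, the family moved as a block. Members were compared as log2 ratios of heme to control CPM where the pair of cultures of a day summed to at least 200 UMIs, which left out at most 3 of the 82. On day 0, the median over 79 members was −0.26, and 68 of them were below 0, where 25.5% of all genes tested were. On day 3, the median was −0.18 and 68 of 81 were below 0 (21.8% of all genes). For day 4, the median was −0.41 with 78 of 80 below 0 (27.7% of all genes). Day 5 gave −0.39 with 78 of 81 below 0 (32.1%), and day 7 gave −0.53 with 78 of 80 below 0 (31.2%). Other genes with transcripts of 600 to 1500 nucleotides (nt), a class near the members in length, had upper quartiles of −0.08, 0.00, 0.03, 0.09 and 0.15. Most genes of that class were thus also below 0 on each day. Since the CPM of a culture must add up, a lower family goes with higher values elsewhere, and the genes outside the family had medians of 0.43, 0.37, 0.32, 0.23 and 0.30. Scaling by TMM factors moved all log2 ratios by −0.22 to −0.35. All members tested were then below 0 on each of the 5 days, where 45.1% to 49.8% of all genes were, so the members above 0 in CPM were not above 0 by that scaling. Distances between members stay the same under any scaling. The members of both subunits lay close together, with medians on day 7 of −0.47 over 33 Rps genes and −0.56 over 47 Rpl genes. Subtracting each member's own log2 ratio of day 3 left a median of −0.07 for day 0, with 67 of 79 members below 0 (41.9% of all genes). The median was −0.24 for day 4, with 79 of 80 below 0 (58.5%), −0.20 for day 5, with 79 of 81 (64.1%), and −0.30 for day 7, with 78 of 80 (54.6%). These values rest on day 3, whose median was −0.35 in place of −0.18 with the limits on genes and mitochondrial UMIs, beside −0.56, −0.43 and −0.54 for the days after the addition.

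**Figure D2:**
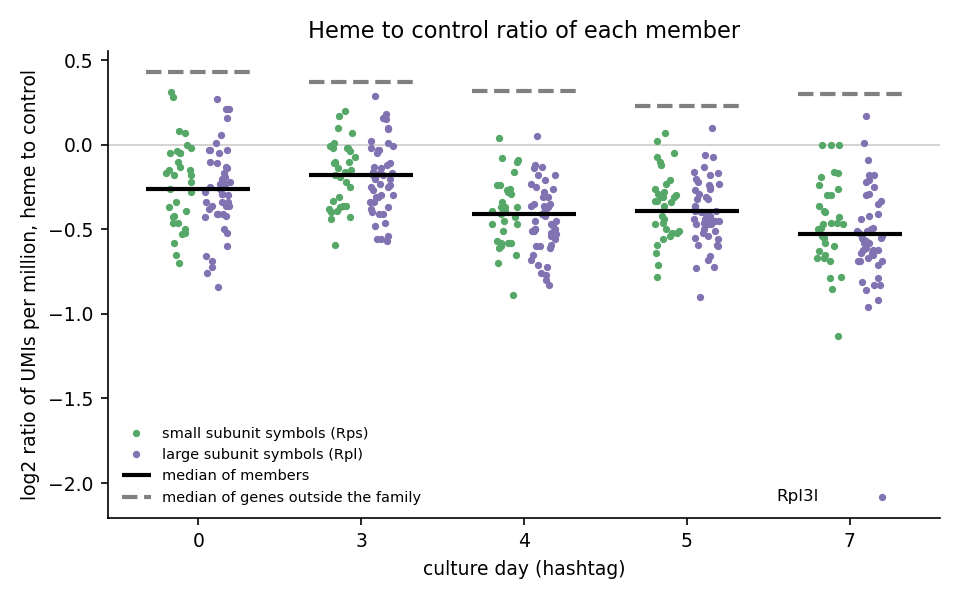
Log2 ratio of CPM, heme to control (y axis), of each member with enough UMIs on each culture day (x axis). Green points are Rps genes, violet points Rpl genes, black lines the median of the members and dashed lines the median of all genes outside the family. The median of the members lay at −0.26 on day 0 and −0.53 on day 7, below that of the other genes on each day, and Rpl3l on day 7 stood apart at −2.08.

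The heme to control ratio of genes outside the family moved with transcript length, and the members are short. Length was that of the longest annotated protein-coding transcript, or of the longest of any kind for genes without one. Its median was 910 nt over the members (quartiles 665 and 1268 nt) and 3069 nt over the other genes tested on day 3. On day 3, before the addition, the median log2 ratio of the other genes was −0.23 for transcripts of 600 to 1000 nt, 0.29 for 2000 to 3000 nt and 0.63 for 5000 nt and longer. On day 0 these medians were −0.38, 0.31 and 0.82, and on day 7 they were −0.30, 0.24 and 0.53. Compared with the 1275 to 1407 other genes of 600 to 1500 nt, the family median differed by 0.03 for day 0 and 0.00 for day 3. It differed by −0.17, −0.20 and −0.35 for days 4, 5 and 7. The 49 to 51 members of that class alone had medians of −0.29, −0.22, −0.45, −0.42 and −0.55, against −0.29, −0.18, −0.24, −0.19 and −0.18 of the other genes. Before the addition, members of this length thus lay at or just below the other genes of the class, and after it further below them. The few members with longer annotated transcripts lay below the other genes of their classes before the addition as well. On day 3, the 5 of 1500 to 2000 nt had a median of −0.43 against 0.07. The 5 of 2000 to 3000 nt had one of −0.20 against 0.29. Their class rests on the longest annotated protein-coding transcript, and which transcript was counted was not tested. The reference of 600 to 1500 nt was chosen after the length pattern had been seen. The part of library preparation and depth in the length pattern was not tested.

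**Figure D3:**
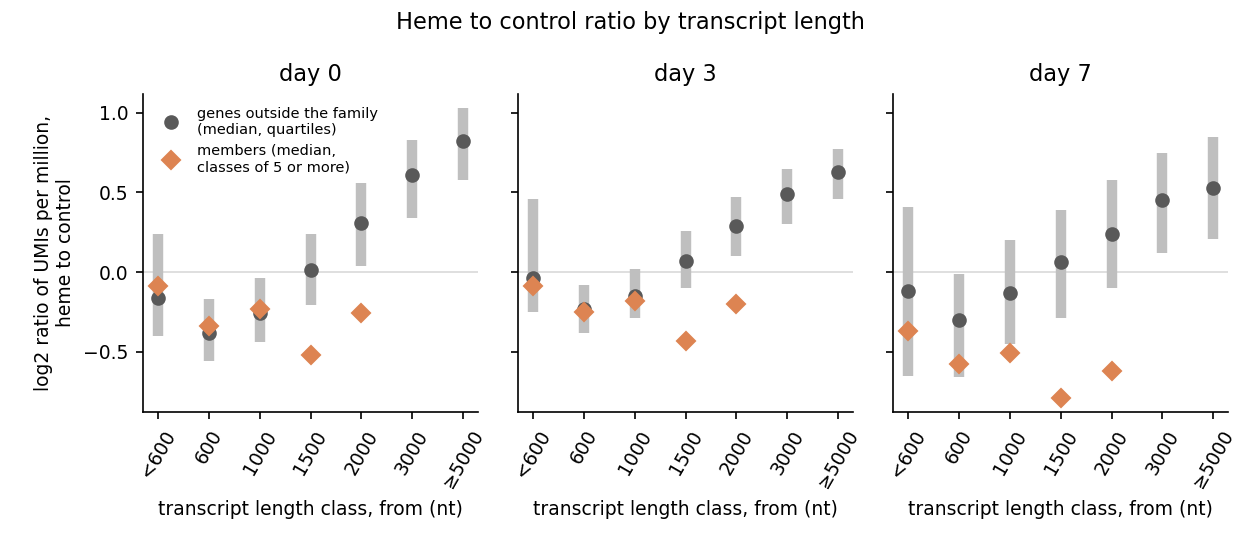
Median log2 ratio of CPM, heme to control (y axis), of genes outside the family (grey points, with bars for the quartiles) and of the members (orange diamonds, classes with 5 or more members) in classes of transcript length (x axis, lower bound of the class in nt) on days 0, 3 and 7. On days 0 and 3 the members up to 1500 nt lay near the other genes of their length, and on day 7 they lay below them, for example at −0.58 against −0.30 in the class from 600 nt.

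Genes that work beside the family gave a mixed picture. The 78 mitochondrial ribosomal protein genes (77 tested), which serve the organelle's own ribosomes, had medians of −0.42, −0.20, −0.43, −0.30 and −0.21 on days 0, 3, 4, 5 and 7, so their lowest values were on days 0 and 4 and day 7 stood near day 3. The 6 cytosolic ribosome genes outside the rule had medians of −0.08, −0.06, −0.27, −0.24 and −0.25. Among these, Rpsa, of the small subunit, had a heme to control ratio of 0.779 on day 0, 0.841 on day 3 and 0.591 on day 7. Rplp1, of the large subunit stalk, had ratios of 1.06, 1.09 and 1.10 on these days, but 0.878 on day 4 and 0.952 on day 5. Fau, a small subunit protein fused to a ubiquitin-like one, had ratios of 0.841, 0.859 and 0.585 on days 0, 3 and 7. Of the 5 elongation factor genes, 2 were below 0 on day 3 (21.8% of all genes) and 4 on day 7 (31.2%), with medians of 0.02 and −0.23. The 12 other genes whose mRNAs are known to begin with a pyrimidine run had medians of −0.09, −0.10, −0.33, −0.36 and −0.48, with 10 of 12 below 0 at the end, where 31.2% of all genes were. The 20 ribosome assembly genes had medians of −0.03, 0.17, −0.36, −0.22 and 0.12, with the last value above 0 in CPM but below the 0.30 of the genes outside the family, and TMM factors move all values of that day by −0.28.

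Against this common movement, a member was said to depart from the family when its log2 ratio differed from the family median by 0.5 or more. By this size, 5 members departed on day 0 (Rpl21, Rpl29, Rpl23a, Rps15 and Rps12), 0 on days 3 and 4, 1 on day 5 (Rpl3l), and 7 on day 7 (Rpl3l, Rps27rt, Rps12, Rps15, Rps19bp1, Rpl7l1 and Rpl13a). Rpl13a lay just under the limit on day 5. Over all genes, 37.1%, 20.0%, 30.4%, 29.9% and 40.3% lay as far from the median of all genes on these days. The members therefore stayed closer to each other than all genes tested did to their own median. On day 3, other genes of 600 to 1500 nt were spread about as little as the members. Their quartiles were −0.32 and 0.00, against −0.34 and −0.03 of the members. On day 0 they were −0.49 and −0.08 against −0.41 and −0.08, and on day 7 −0.52 and 0.15 against −0.66 and −0.33. The members also have larger counts than most genes, and the part of length and counts in this was not tested.

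Rps18, Rpl21, Rpl15, Rpl9, Rpl29 and Rpl11 lay below the family on every day. Rps18, a protein of the small subunit head, had 4208, 2354, 1795, 1990 and 2274 CPM in the control cultures on days 0, 3, 4, 5 and 7 and 2597, 1569, 969, 1213 and 1324 CPM in the heme cultures. The ratio of heme to control was 0.617, 0.666, 0.540, 0.610 and 0.582 (interval 0.577 to 0.588 on day 7), so Rps18 was lower in heme by a like factor before and after the addition. Rpl21, a large subunit protein, had 3872, 2145, 1664, 1845 and 2232 CPM in control and 2160, 1455, 956, 1122 and 1144 CPM in heme, and departed on day 0 by −0.58. Rpl15 had ratios of 0.620, 0.679, 0.563, 0.625 and 0.549. The gap of these genes to the family was there before the addition, and its course differed among them. The departure of Rps18 was −0.44, −0.40, −0.47, −0.32 and −0.25 in the order of the days. That of Rpl11 was larger after the addition, at −0.26, −0.23, −0.35, −0.33 and −0.39. For Rpl29 it was −0.50, −0.36, −0.31, −0.20 and −0.16, and for Rpl9 it was −0.47, −0.39, −0.36, −0.26 and −0.30.

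Rpl13a, Rps15, Rps12, Rpl23a and Rpl37a lay above the family on every day. Rps12, of the small subunit, had 7830, 4965, 3692, 3536 and 3740 CPM in the control cultures and 9686, 5697, 3438, 3296 and 3734 CPM in the heme cultures. Its ratio of heme to control was above 1 before the addition, at 1.24 and 1.15, and then 0.931, 0.932 and 0.998. By TMM factors its log2 ratio was −0.04 on day 0. Rps15, of the small subunit, had 3092, 2007, 1582, 1689 and 2107 CPM in control and 3763, 2254, 1630, 1777 and 2106 CPM in heme. Its departures were 0.54, 0.35, 0.46, 0.47 and 0.53. Rpl23a, which lies at the exit of the peptide tunnel, departed by 0.53 on day 0 and by 0.31 on day 7.

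Rpl13a, a large subunit protein that in myeloid cells can leave the ribosome and repress the translation of inflammatory mRNAs, was highest above the family on days 3, 4, 5 and 7. It had 430, 253, 189, 199 and 219 CPM in control and 496, 309, 196, 214 and 245 CPM in heme, which is low for this family. Its ratio was 1.12 on day 7 (interval 1.09 to 1.15), and its departure was 0.46, 0.47, 0.47, 0.50 and 0.70. By TMM factors its log2 ratio on that day was −0.11. The gene overlaps the annotated gene Gm45713 on the same strand, and reads that belong to both would not be assigned by the counting, so its level is uncertain. The same holds for Rpl13, Rpl36al and Rps10, each of which overlaps a protein-coding gene on its own strand in the annotation. In all, 28 members overlap another annotated gene, most of them on the other strand.

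**Figure D4:**
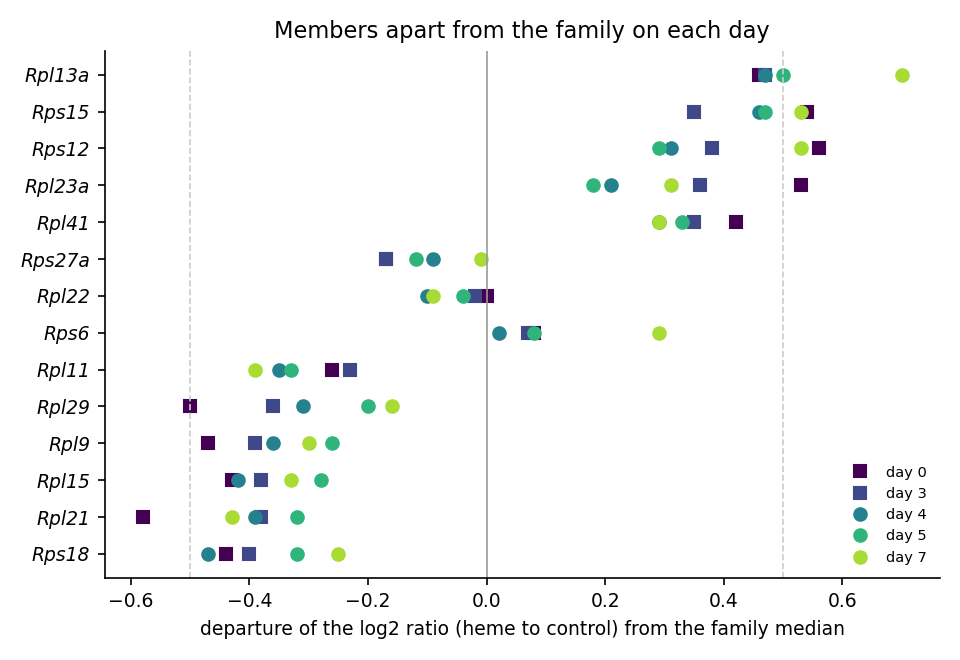
Departure of the log2 ratio of heme to control from the family median (x axis) for 14 members (y axis) on each culture day (squares for days 0 and 3, before the addition, circles for days 4, 5 and 7). Dashed lines mark 0.5 in either direction. Rps18, Rpl21, Rpl15, Rpl9, Rpl29 and Rpl11 lay to the left and Rpl41, Rpl23a, Rps12, Rps15 and Rpl13a to the right on all 5 days.

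Since the order of the members was in place before the addition, the departure of day 3 was subtracted from that of each later day. After this, 0 members departed on days 0, 4 and 5, and 1 departed on day 7, Rpl3l. The members with the next largest values on day 7 after subtraction were the paralogue Rpl22l1, at 0.46 above the family, Rpl7l1 (0.37) and Rps27rt (−0.34). Rpl22l1 had 853 CPM in control and 621 CPM in heme on day 3, and 646 and 507 CPM on day 7. Rps27rt had 14.3 and 10.5 CPM on day 3 and 21.9 and 10.0 CPM on day 7, while Rps27 had 1394 and 1234 CPM on day 3 and 1956 and 1231 CPM on day 7.

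Rpl3l was the member with the clearest pattern of its own. It encodes a paralogue of Rpl3 known from heart and skeletal muscle, and it lies at chr17:24727820-24736143 on the plus strand (GRCm38). In the control cultures it had 0.261 CPM on day 0 (5 UMIs), 6.84 CPM on day 3 (245 UMIs), 10.2 on day 4 (325 UMIs), 12.0 on day 5 (419 UMIs) and 14.0 on day 7 (587 UMIs). In the heme cultures it had 0.480 CPM (12 UMIs), 4.89 (369 UMIs), 7.68 (360 UMIs), 6.46 (336 UMIs) and 3.30 CPM (181 UMIs). The control values were higher on each later day, whereas the heme values were highest on day 4 and lowest after the addition on day 7. The ratio of heme to control was 0.715 (interval 0.606 to 0.843) before the addition on day 3. It was 0.751 (0.644 to 0.875), 0.537 (0.464 to 0.622) and 0.236 (0.198 to 0.279) for days 4, 5 and 7. Cells with a UMI of Rpl3l made up 15.4% (control) and 5.79% (heme) of the day 7 cultures, at median depths of 11831 and 16856 UMIs, so the shallower cells had the larger share. In the day 0 cultures, where the gene was nearly silent, they made up 0.291% and 0.639%, at depths of 9446 and 9771 UMIs.

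The gene after Rpl3l on the same strand, Msrb1, starts 498 bases beyond its annotated end, and encodes an enzyme that repairs oxidized methionine. Msrb1 had 615 CPM in control and 579 CPM in heme on day 3, and 438 and 431 CPM on day 7, when Rpl3l was at 14.0 and 3.30 CPM. There were 11.1 Rpl3l UMIs per 1000 Msrb1 UMIs in control and 8.44 in heme on day 3, and 31.9 and 7.64 on day 7, so the counts of both genes did not keep 1 ratio. Whether reads counted for Rpl3l come from transcripts of its own was not tested.

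Among the other paralogues, Rps27l, which is known as a target of p53, departed over time. It had 814 CPM on day 0 and 931 CPM on day 3 in control, and 630 and 817 CPM in heme, so it was lower on day 0 than on day 3 while nearly all other members were higher. Its log2 ratio of heme to control was −0.37 on day 0, −0.19 on day 3 and −0.49 on day 7. Rpl36al had 588 to 356 CPM in control and 532 to 323 CPM in heme, with a log2 ratio of 0.02 on day 3 and −0.21 on day 7. Rpl7l1 had 60.9 and 61.3 CPM on day 7, and Rps19bp1 54.3 CPM in both libraries, so for these matches by symbol that are not core ribosomal proteins the CPM of both libraries were level on that day. By TMM factors their log2 ratios were −0.27 and −0.28, above the family median of −0.81. Rpl39l, known from testis, had at most 4.59 CPM, and Rpl10l, also known from testis, had 2 UMIs in all.

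Members with known roles beside the ribosome had departures from −0.39 (Rpl11) to 0.70 (Rpl13a) on day 7. Rps6, the target of the S6 kinases, had 2010, 1354, 1013, 1027 and 1082 CPM in control and 1776, 1253, 773, 828 and 913 CPM in heme. It lay within 0.08 of the family median on days 0 to 5 and at 0.29 above it on day 7. Rps19, Rpl5 and Rpl11, whose loss causes Diamond-Blackfan anemia in humans, did not lie together: on day 7 their departures were 0.17, 0.35 and −0.39. Rpl5 and Rpl11 bind Mdm2 in one complex, and Rpl5 had 1162 CPM in control and 1027 CPM in heme on day 7, while Rpl11 had 2743 and 1445 CPM. Rps14, lost in the 5q- syndrome, was at 0.07 on day 7, Rpl22, known for its role in lymphocytes, at −0.09, and Rpl38, needed for the translation of Hox mRNAs, at −0.01. The ubiquitin fusion Rps27a lay at −0.17 on days 0 and 3 and at −0.01 on day 7.

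Over culture time, the members again moved together. From day 3 to day 0 of the control library the family median was 0.64 higher, with 2 of 80 members below 0 (41.5% of all genes tested), and in the heme library it was 0.59 higher with 2 of 80 below 0 (38.4%). On day 4 it was −0.32 from day 3 in control, with 79 of 80 below 0 (62.6% of all genes), and −0.55 in heme, with 79 of 81 (61.4%). For day 5 it was −0.18 in control, with 73 of 81 (54.9%), and −0.38 in heme, with 79 of 81 (60.1%). On day 7 it was 0.06 in control, with 29 of 80 below 0 (53.8%), and −0.25 in heme, with 74 of 80 (57.3%). From day 3, the members that departed by 0.5 or more numbered 2, 1, 2 and 5 in control on days 0, 4, 5 and 7, where 53.8%, 12.6%, 27.1% and 43.8% of all genes did. They numbered 2, 2, 2 and 0 in heme, where 52.6%, 26.4%, 36.7% and 41.6% of all genes did. On day 0 these were Rpl3l and Rps27l in both libraries. Rpl3l had only 5 (control) and 12 (heme) UMIs on day 0. It reached the minimum through its 245 and 369 UMIs on day 3, so its departure was fixed by the filter. On day 5, Rpl3l and Rpl39l departed in both, the latter by 1.15 in control and 1.30 in heme on 160 and 174 UMIs. These UMIs of Rpl39l lay in only 0.889% (control) and 0.899% (heme) of the day 5 cells. In control, Rpl39l had 84 UMIs on day 3 and 44 on each of days 4 and 7. It reached the minimum there on day 5 alone, and whether it departed on other control days was not tested.

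On day 7 of the control library, Rps2, Rpl7l1 and Rpl4 lay below the family, at departures from day 3 of −0.63, −0.60 and −0.53, and Rpl3l and Rps27rt above it, at 0.97 and 0.56. Rps2 had 4335, 2806, 2061, 2088 and 1897 CPM over the control days and 3141, 2194, 1266, 1470 and 1370 CPM over the heme days. Rps27 had 2443, 1394, 1216, 1417 and 1956 CPM in control and 2035, 1234, 1007, 1124 and 1231 CPM in heme. Rps2 thus stayed low to the end in both libraries, whereas Rps27 came back towards its day 0 level in control. Rps14, which came back likewise in control, had 2650 CPM on day 3 and 3479 CPM on day 7 there, and 2468 and 2529 CPM in heme.

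In a pool of cell types, less RNA of the family per cell and more cells of a type with a low share cannot be told apart from the sum alone. Cells were therefore sorted into ranges of a score, the rank of the share that each of 5 panels of marker genes takes of the UMIs outside the family, with a cell placed where its highest rank lay in the top 25%. These are ranges and not cell types: 6989 of 26214 cells lay near a limit. Other panels' genes were present in each range. In the granulocyte progenitor range, set by genes such as Elane and Mpo, the median cell of days 3 to 7 had 5.83% of these UMIs in the neutrophil panel in control and 8.03% in heme. In the dendritic cell range, set by Ccr7, Fscn1, H2-Ab1 and others, the neutrophil panel took 0.135% and 0.293%, and the dendritic panel itself 2.47% and 1.56%. In the neutrophil range the neutrophil panel took 37.3% and 31.8%.

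The neutrophil range had by far the lowest shares of the family. Its share was 9.48%, 7.05%, 6.55% and 9.02% on days 3, 4, 5 and 7 in control, and 7.97%, 6.51%, 6.67% and 7.43% in heme, so the libraries were level on day 5. In the dendritic cell range it was 21.4%, 19.8%, 20.2% and 22.8% in control and 19.4%, 13.8%, 13.4% and 14.0% in heme. The difference between the libraries in this range was −1.98 points on day 3 and −8.86 points on day 7, over 1384 control and 472 heme cells with median depths of 12628 and 23273 UMIs. In the monocyte and macrophage range the share was 21.5%, 17.2%, 17.0% and 17.9% in control and 19.2%, 13.4%, 14.3% and 14.8% in heme, a difference of −2.34 points on day 3 and −3.14 on day 7. In the granulocyte progenitor range it was 21.5%, 21.3%, 20.7% and 19.3% in control and 17.9%, 15.1%, 16.4% and 16.2% in heme. At the start of culture, the 1003 control and 1297 heme cells of the progenitor range had 30.8% and 25.8%. On day 4, the heme library was below control in all 5 ranges, by −0.540 points in the neutrophil range and by −3.82 to −6.24 points in the others. On day 5, it was 0.112 points above control in the neutrophil range and 0.251 points above in the progenitor range, and below control in the other 3. Depth per cell moved with the library in several ranges, and its part in the shares was not tested. When each range was weighted alike in both libraries, the difference was −2.74 points on day 3 and −5.37 points on day 7.

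**Figure D5:**
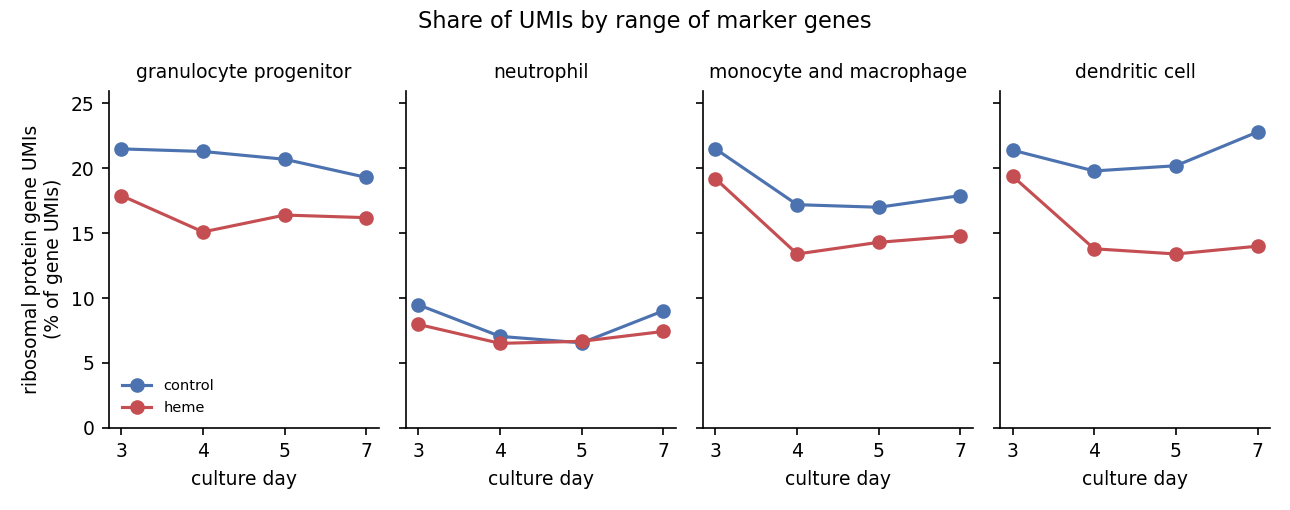
Share of gene UMIs in the 82 members (y axis, %) on days 3, 4, 5 and 7 (x axis) in 4 ranges of marker genes, in the control (blue) and heme (red) libraries. The neutrophil range lay lowest, between 6.51% and 9.48%. In the dendritic cell range heme lay at 19.4% for day 3 and 14.0% for day 7, and control at 21.4% and 22.8%.

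The members did not lie equally low in the neutrophil range. Against the granulocyte progenitor range of the same library over days 3 to 7, the family median was −1.50 (log2) in control and −1.28 in heme, and the median of other genes was −0.49 and −0.48. By 0.5 or more, 10 of 80 members departed from the family in control, 6 of them above it, and 9 of 80 in heme, 4 of them above it, where 60.8% and 55.8% of all genes did from their own median. Rps2 lay lowest, with 690 CPM in the neutrophil and 3559 CPM in the granulocyte progenitor range of control (a departure of −0.87), and 486 and 2462 CPM in heme (−1.06). Rpl14 was at −0.78 in both, and Rpl12, of the large subunit stalk base, at −0.62 and −0.74. Rps27a lay above the family, with 2985 and 5715 CPM in control (0.56) and 2465 and 4177 CPM in heme (0.52), and Rps27 was at 0.55 and 0.54. In the monocyte and macrophage range 2 members departed in control (Rps2 and Rpl3l) and 1 in heme (Rpl3l), where 48.4% and 42.6% of all genes did. In the dendritic cell range the counts were 5 and 4 of 81, where 52.1% and 53.4% of all genes did, with Rpl3l above and Rpl7l1 below the family in both libraries.

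Against the granulocyte progenitor range, Rpl3l lay above the family in each of the 3 other ranges. In control it had 14.9 CPM in the neutrophil range, 15.0 in the dendritic cell range, 9.15 in the monocyte and macrophage range and 2.60 in the granulocyte progenitor range over days 3 to 7. In heme it had 10.0, 6.54, 4.99 and 2.53 CPM. In the dendritic cell range it had 14.0 CPM in control and 7.91 CPM in heme on day 3 (63 and 74 UMIs), and 18.4 and 3.12 CPM on day 7 (376 and 41 UMIs). In the monocyte and macrophage range it had 9.55 and 6.29 CPM on day 3, and 10.4 and 3.17 CPM on day 7. The lower level in heme on day 7 was thus present within both of these ranges. In the neutrophil range Rpl3l had 10.1 CPM in control and 7.78 CPM in heme on day 3 (63 and 75 UMIs). On day 7 it had 13.3 and 10.6 CPM there, on only 3 and 19 UMIs.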

How the data were processed

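Data were analysed from 2 deposited libraries of single cells, 1 of control (albumin) and 1 of heme cultures, each a pool of 5 hashtagged cultures. The values deposited are raw UMI counts by gene and cell barcode, which the authors made with Cell Ranger from 3′ libraries. The labels name version 4.0.0 and the matrix header 5.0.0, with genome build GRCm38.p6 per the submitters' processing notes. Hashtag calls were made by the authors with HTODemux (Seurat 3.2.3, quantile 0.99). Barcodes called singlets were used with no further limit, and doublets within a hashtag remain. Reads that match several genes, such as processed copies, may be lost in the counting.

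UMIs were summed per culture and divided by the culture's total (CPM, per 1000000). Shares carry exact (Clopper-Pearson) binomial intervals, ratios exact intervals for 2 Poisson counts, and differences add both in quadrature. Log2 ratios were computed without a pseudocount for genes whose compared cultures sum to at least 200 UMIs. With 1 library per group no test was possible. Transcript lengths are the longest protein-coding transcript in GENCODE M21 (the longest of any kind for genes without one), where 26013 of 26124 gene identifiers were found. Scaling alternatives used edgeR 4.0.16 (TMM factors) and median-of-ratios factors, other work Python 3.11.15, numpy 2.4.6, scipy 1.17.1 and pandas 2.3.3. The ratio script was tested on simulated data.

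The members, lists and size rules were chosen with earlier results of these data known. Named were, for each day, the 3 members highest above and the 3 lowest below the family, the 5 with most UMIs, paralogues, members with roles beside the ribosome, and the ribosome genes outside the rule. Rps2, Rpl4, Rpl12, Rpl14, Rpl37a, Rps10, Rps27 and Msrb1 were named after their values were seen. Alternative settings were cell limits, denominators, scalings, filters and size rules. Protein sequences were not used here. A few genes that the rule for names would take are not reported here.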

Additional observations from a re-analysis of the deposited data

Results flagged for a closer look

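The change of the family's share from day 3 to day 7 went in opposite directions in both libraries. Control moved by 0.968 percentage points and heme by −2.83 percentage points. The rise in control was one of the summed culture, and among the marker ranges only the dendritic cell range rose (21.4% to 22.8%). The control share was lower on day 7 in the monocyte and macrophage (21.5% to 17.9%), granulocyte progenitor (21.5% to 19.3%) and neutrophil (9.48% to 9.02%) ranges. The neutrophil range held 546 control cells on day 3 and 53 on day 7. The median log2 ratio of the members from day 3 to day 7 was 0.06 for control and −0.25 for heme. Each value rests on 1 library, and the difference was not tested.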

How the results depend on the processing

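No paired analysis was possible because no result comes from a test and each group is 1 library. Leaving out a library leaves no comparison. For days 0, 3, 4, 5 and 7, the difference in the family's share (as reported −4.61, −2.21, −3.86, −3.85 and −6.02 points) became −4.88, −3.96, −4.70, −4.17 and −6.17 with cells limited to 500 to 5000 genes and under 15% mitochondrial UMIs. With a further limit of 30% ribosomal protein UMIs it became −1.72, −3.92, −4.68, −4.10 and −5.74, so that day 0 lost most of its difference. As a difference of medians over cells it was −5.15, −2.73, −2.94, −2.10 and −6.34. Without mitochondrially encoded genes it was −4.64, −2.18, −3.92, −3.98 and −6.26, without Fth1 and Ftl1 −4.65, −2.28, −3.61, −3.28 and −5.30, and with the 6 other ribosome genes added −4.92, −2.34, −4.20, −4.17 and −6.56. Limited to cells of 5000 to 20000 UMIs it was −5.22, −3.43, −3.98, −3.97 and −6.85, and with marker ranges weighted alike −4.72, −2.74, −3.93, −4.15 and −5.37. Both of these settings were chosen after seeing the data.

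The family's median log2 ratio of heme to control, in the same order, became −0.61, −0.52, −0.69, −0.62 and −0.81 with TMM factors, and −0.67, −0.53, −0.74, −0.64 and −0.80 with median-of-ratios factors. Against the UMIs outside the family it was −0.35, −0.22, −0.48, −0.46 and −0.64, and with the limits on genes and mitochondrial UMIs −0.27, −0.35, −0.56, −0.43 and −0.54. With members of 20 or more UMIs it was −0.54 on day 7. With day 3 subtracted it was −0.07, −0.24, −0.20 and −0.30 for days 0, 4, 5 and 7. With the median of other genes of 600 to 1500 nt subtracted, a reference chosen after seeing the data, it was 0.03 for day 0, which turns the direction, 0.00 for day 3, and −0.17, −0.20 and −0.35 after the addition.

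The members that departed from the family numbered 0 on days 0 and 5 and 1 on day 7 at a size of 1 or more. With the departure on day 3 subtracted, a setting chosen after seeing the data, they numbered 0 on day 0, 0 on day 5 and 1 on day 7. On day 4 there was 1 with members of 20 or more UMIs and there were 2 with the limits on genes and mitochondrial UMIs. Against day 3, a size of 1 or more left 1, 0, 1 and 0 in control for days 0, 4, 5 and 7 and 1, 1 and 1 in heme for days 0, 4 and 5, and members of 20 or more UMIs gave 1 in heme on day 7. At this size, the member on day 0 was Rpl3l, which reached the minimum through day 3 alone, and on day 5 it was Rpl39l. In control, Rpl39l reached the minimum on day 5 alone.

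Counting error is small beside the shares, but the part of depth per cell in them was not tested, and the difference on day 3 moved when depth was held to a band. Counting limits Rpl3l, Rpl39l and Rps27rt, which have few UMIs, and it says nothing of variation between cultures or libraries, for which there is no replicate.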

Other observations

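Barcodes that the hashtag calls put in no single culture were outside all comparisons. Those with several hashtags had 19.5% of their gene UMIs in the ribosomal protein genes (control) and 16.1% (heme). Those without a hashtag had 23.2% and 20.3%.

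Among the 53 members with 1 listed start, those with a pyrimidine run around it had lower medians than those without on all 5 days. The ranges of both sets overlapped on each day, and the members kept much of their order, so the days are not separate observations. For day 0 the median log2 ratio was −0.30 over 30 members with a run (range −0.70 to 0.31) and −0.17 over 21 without (range −0.72 to 0.28). On day 4 the medians were −0.43 and −0.37. A run anywhere in the 30 bases counted, and whether the listed starts are used in these cells was not tested. On day 7 the median log2 ratio of heme to control was −0.55 over 30 members with a run and −0.46 over 21 without, and on day 3 it was −0.25 over 31 and −0.14 over 21. The erythroid genes, of another cell type that the BM could hold, took 0.430% of the UMIs in control and 0.275% in heme on day 0. For days 3, 4, 5 and 7 they took 0.00824%, 0.0125%, 0.0201% and 0.0142% in control and 0.0126%, 0.0180%, 0.0206% and 0.0105% in heme.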
